A study of Mus musculus with 9 samples.

Results

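The 10 genes described here carry or control sodium uptake in the distal part of the nephron, and they were chosen by name from the 21950 genes with mRNA values in cortex libraries of control, dbdb and dbR kidneys. They were compared because thiazolidinediones such as rosiglitazone, which activate the nuclear receptor PPARγ, can cause sodium and fluid retention. Control mice were db/m, heterozygous for the leptin receptor mutation db and not diabetic. Mice of the dbdb and dbR groups were homozygous for db, lack the signalling form of the receptor in every tissue, and have type 2 diabetes. According to the study's methods all were male C57BL/KsJ mice from a stock that also carries the Dock7m (misty) allele, and the control mice were littermates. The dbR mice received rosiglitazone by gavage from an age of 7 weeks, at 20 mg/kg/day over 8 weeks. The dbdb mice received vehicle, and all cortices were taken at 15 weeks. Whether the control mice received vehicle is not given in the sources used here, so in each comparison with control a difference in gavage and the difference in genotype cannot be told apart. Each group had 3 mice with 1 library per mouse, and the p-values below measure the spread between these mice. Expression is given as FPKM (fragments per kilobase of transcript, scaled to the mapped fragments of the library) summed over the transcripts of a gene.

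In the thick ascending limb sodium enters the cell through the sodium-potassium-chloride cotransporter NKCC2, in the distal convoluted tubule through the sodium-chloride cotransporter NCC, and in the connecting tubule and collecting duct through the epithelial sodium channel ENaC. The WNK kinases act on the kinase SPAK, which phosphorylates and activates NKCC2 and NCC. Aldosterone acts through the mineralocorticoid receptor to raise the kinase SGK1, which restrains the ubiquitin ligase NEDD4-2 and so keeps ENaC at the cell surface. NKCC2 is the target of loop diuretics, NCC of thiazides and ENaC of amiloride.

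The libraries held an estimated 23.9 M to 29.2 M fragments, and mitochondrial transcripts took between 26.9% and 32.8% of the mRNA FPKM. The long leptin receptor transcript (Lepr, ENSMUST00000106921) had an FPKM of at least 0.923 in the control libraries and of at most 0.464 in the dbdb and dbR libraries. Control replicate 3 stood apart in the lncRNA Gm26917, with an FPKM of 5.27 against at least 1083 in each other library, and the calls and log2 fold changes of the 10 genes were also computed without it. All 10 genes passed the filter on low values, which asked for an average of 0.1 FPKM or more across the 9 libraries, and the member with the fewest fragments, Scnn1g, had an estimated 550.4 in its lowest library, where counting alone gives an SD of 4.26%. Of the markers of the segments in which these genes act, Umod of the thick ascending limb was at 209 FPKM or more in every library, Pvalb of the distal convoluted tubule at 54.2 or more, and Aqp2 of principal cells at 28.0 or more, so all 3 segments were in the tissue. The urea transporter gene of the inner medulla, Slc14a2, was at 0.119 FPKM or less.

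Coordinates refer to GRCm38 with the GENCODE M21 annotation. Slc12a1 lies on chr2:125152505-125230002 (plus strand), Slc12a3 on chr8:94329201-94366214 (plus), Scnn1a on chr6:125320659-125344943 (plus) and Sgk1 on chr10:21882184-21999903 (plus). Scnn1g and Scnn1b are neighbours on chromosome 7, at chr7:121734479-121768475 and chr7:121865038-121918514, both on the plus strand. Wnk1 lies on chr6:119923969-120038672 (minus strand), Wnk4 on chr11:101260567-101277409 (plus) and Stk39 on chr2:68210445-68472268 (minus). The sequences that bear on the results are 3 alternative exons of Slc12a1, each coding for part of a membrane-spanning stretch of the cotransporter, of which a transcript uses 1. They are shown because the shares of the transcripts that carry them are described below. Each is 96 bases long, and capitals mark the 45 positions that are not the same in all 3 exons.

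the first alternative exon (chr2:125165495-125165590, ENSMUST00000110494): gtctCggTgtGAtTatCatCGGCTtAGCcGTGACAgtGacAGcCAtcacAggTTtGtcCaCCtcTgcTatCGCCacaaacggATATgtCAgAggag

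the second alternative exon (chr2:125166123-125166218, ENSMUST00000028630): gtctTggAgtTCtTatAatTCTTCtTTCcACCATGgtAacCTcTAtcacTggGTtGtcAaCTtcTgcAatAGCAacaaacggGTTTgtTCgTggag

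the third alternative exon (chr2:125166673-125166768, ENSMUST00000110495): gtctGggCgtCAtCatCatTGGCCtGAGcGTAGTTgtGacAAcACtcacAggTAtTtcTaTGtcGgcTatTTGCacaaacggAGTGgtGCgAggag

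The first and second exons shared 65.6% of their bases, the first and the third 68.8%, and the second and the third 58.3%. For 8 of the 10 genes RefSeq lists promoter windows (GRCm38.p6) from 250 bases before to 50 bases after a start, 6 for Sgk1 and 1 for each other gene, and 6 motifs were searched in them on both strands. The windows shown are that of Slc12a3, the only one outside Sgk1 that held any of these motifs, and those of the 2 Sgk1 transcripts described below, which start at bases 21994666 and 21993890. In the Slc12a3 window and the first Sgk1 window capitals mark TATAAA, which lay from base -32 to -27 in Slc12a3 and from base -11 to -6 in Sgk1, on the strand of the gene. In the other Sgk1 window capitals mark the corticosteroid receptor element, a palindrome matched from base -188 to -176, and its hexamer AGAACA on either strand, which lay at 3 places, 2 of them overlapping the palindrome.

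Slc12a3 promoter (chr8:94328958-94329257, plus strand): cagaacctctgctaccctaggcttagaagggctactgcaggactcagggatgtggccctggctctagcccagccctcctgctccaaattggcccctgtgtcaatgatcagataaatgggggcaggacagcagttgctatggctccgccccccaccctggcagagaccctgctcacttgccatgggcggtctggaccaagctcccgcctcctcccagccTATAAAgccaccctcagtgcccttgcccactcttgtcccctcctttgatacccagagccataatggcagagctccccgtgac

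Sgk1 promoter (chr10:21994416-21994715, plus strand): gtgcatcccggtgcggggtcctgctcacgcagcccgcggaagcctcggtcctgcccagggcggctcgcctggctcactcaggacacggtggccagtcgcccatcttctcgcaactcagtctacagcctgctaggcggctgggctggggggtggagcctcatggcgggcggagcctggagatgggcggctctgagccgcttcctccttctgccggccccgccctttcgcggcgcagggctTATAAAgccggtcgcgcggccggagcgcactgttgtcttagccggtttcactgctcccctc

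Sgk1 upstream promoter (chr10:21993640-21993939, plus strand): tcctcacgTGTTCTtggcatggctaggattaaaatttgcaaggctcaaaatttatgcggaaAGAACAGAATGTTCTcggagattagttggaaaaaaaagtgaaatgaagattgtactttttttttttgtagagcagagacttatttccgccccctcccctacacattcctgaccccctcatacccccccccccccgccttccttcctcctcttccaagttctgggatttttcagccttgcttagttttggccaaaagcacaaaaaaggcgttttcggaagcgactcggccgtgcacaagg

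TATAAA stands in 13.6% of the 32851 promoter windows of the table. The other 5 motifs, with the share of all windows that hold them, were the full palindromic corticosteroid receptor element (0.475%), its single hexamer AGAACA (19.0%), the PPAR element (0.381%), the ESRR element TCAAGGTCA (0.423%) and the HNF1 element (0.00913%). A motif that overlaps another was counted under both. Outside Sgk1 none of these 5 was in the windows of the other genes, which says only that these letters are not in these windows. Of the 4 Sgk1 windows not shown, 2 held AGAACA, 1 of them with TATAAA, and 2 held the ESRR element. With 6 windows Sgk1 had more sequence searched than any other of the 10 genes, and a match is not a site of binding.

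In dbdb vs. control, 8 of the 10 genes rose and none fell. NCC (Slc12a3) and the 3 ENaC subunit genes rose by 1.72-fold to 2.55-fold, and Sgk1 rose by 6.10-fold. In comparison, 13.1% of the 14537 genes tested were called higher and 26.4% were called in either direction. The median log2 fold change of the 10 genes was 0.82, and that of all genes tested was -0.0030. All tests of genes are limma on log2(FPKM + 0.1) in 1 model of the 3 groups, two-sided. They carry Benjamini-Hochberg adjustment over all genes tested in the comparison, and a gene was called at an adjusted p under 0.05. Transcripts were fitted in the same way, with adjustment over all transcripts tested. Transcript shares and lncRNAs were compared with an exact permutation test without adjustment.

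**Figure D1:**
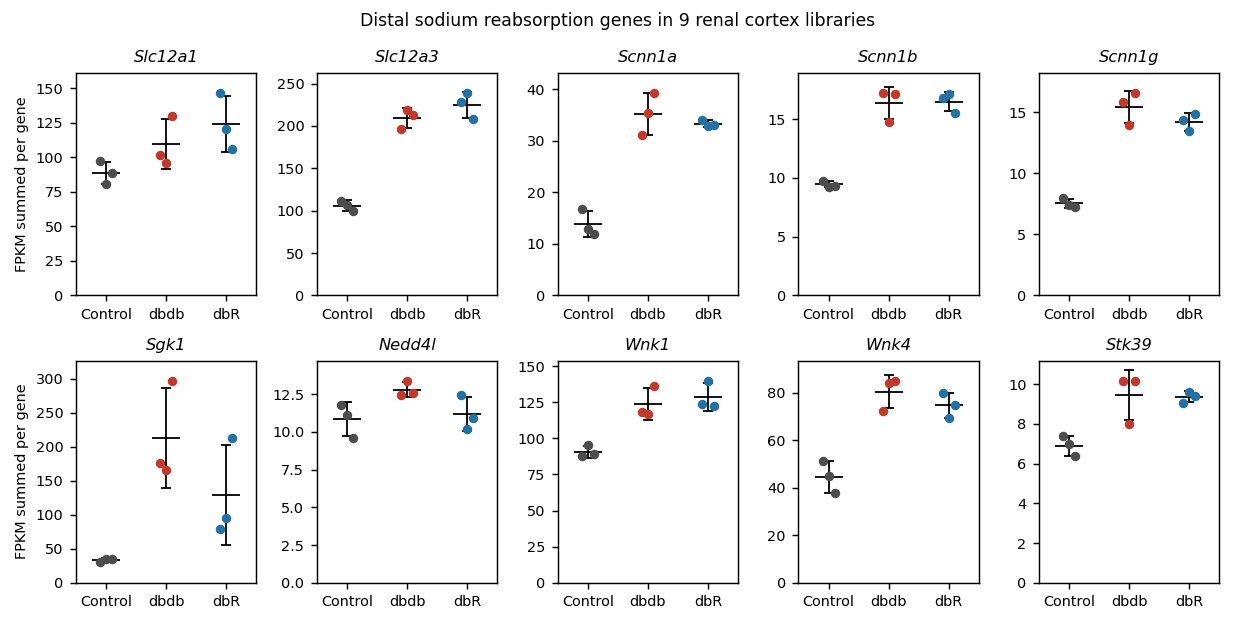
FPKM summed per gene (y axis, from 0) in the 3 libraries of each group, with 1 point per mouse and the mean and SD as a bar. The dbdb points lie above the control points without overlap for every gene but Slc12a1, and the dbR points overlap the dbdb points for every gene but Nedd4l.

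Among the sodium entry genes, Slc12a1, which codes for NKCC2, had FPKM values of 97.1, 81.0 and 88.8 in control, 102, 96.3 and 130 in dbdb and 146, 121 and 106 in dbR libraries. The control and dbdb values overlapped, since dbdb replicate 2 lay below control replicate 1. Slc12a1 did not pass the test in dbdb vs. control, with a log2 fold change of 0.29 (SE 0.14, limma adjusted p = 0.147). Slc12a3, which codes for NCC, had 112, 107 and 99.4 FPKM in control, 196, 219 and 213 in dbdb and 228, 238 and 208 in dbR libraries. The lowest dbdb value was well above the highest control value, and the log2 fold change was 0.98 (SE 0.073, limma adjusted p = 2.6e-05).

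Scnn1a codes for the α subunit of ENaC, which is needed for the channel to conduct. It had 16.8, 12.8 and 11.96 FPKM in control, 31.1, 35.4 and 39.2 in dbdb and 34.2, 32.8 and 33.1 in dbR libraries. Every dbdb and dbR library lay above every control library, and in dbdb vs. control Scnn1a had the largest log2 fold change of the 3 subunits, 1.35 (SE 0.12, limma adjusted p = 7.3e-05). The β subunit gene Scnn1b had 9.73, 9.25 and 9.35 FPKM in control, 17.2, 14.8 and 17.2 in dbdb and 16.8, 17.1 and 15.5 in dbR libraries. The control libraries differed by little, and dbdb vs. control gave a log2 fold change of 0.79 (SE 0.075, limma adjusted p = 9.9e-05). The γ subunit gene Scnn1g had 7.99, 7.37 and 7.25 FPKM in control, 15.8, 13.9 and 16.5 in dbdb and 14.4, 13.4 and 14.9 in dbR libraries. Here too the groups did not overlap in dbdb vs. control, with a log2 fold change of 1.02 (SE 0.080, limma adjusted p = 3.5e-05).

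Sgk1 codes for the serum- and glucocorticoid-regulated kinase. It had 30.2, 35.3 and 35.4 FPKM in control, 176, 165 and 297 in dbdb and 78.6, 95.4 and 213 in dbR libraries. Every dbdb and dbR library exceeded every control library, and replicate 3 was the highest of its group in both dbdb and dbR. Sgk1 rose in dbdb vs. control with a log2 fold change of 2.61 (SE 0.33, limma adjusted p = 0.000467). Without any 1 library it stayed between 2.34 and 2.77. Nedd4l codes for the ubiquitin ligase NEDD4-2, which removes ENaC from the membrane, and had 11.8, 11.1 and 9.60 FPKM in control, 12.5, 13.4 and 12.6 in dbdb and 12.4, 10.2 and 10.9 in dbR libraries. The dbdb libraries lay just above the control libraries, but the log2 fold change of 0.24 (SE 0.096) did not pass the test (limma adjusted p = 0.0875). Across all genes tested, 21.2% had dbdb libraries that lay above the control libraries without overlap, so the absence of overlap in Nedd4l is a common outcome.

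All 3 kinase genes upstream of the cotransporters rose in dbdb vs. control. Wnk1, whose product senses chloride and activates SPAK, had 87.7, 95.1 and 88.9 FPKM in control, 118, 117 and 136 in dbdb and 124, 140 and 122 in dbR libraries. The groups did not overlap in dbdb vs. control, and the log2 fold change was 0.45 (SE 0.078, limma adjusted p = 0.0027). Wnk4, whose mutations cause familial hyperkalaemic hypertension, had 51.2, 45.1 and 37.6 FPKM in control, 72.4, 84.0 and 85.1 in dbdb and 79.9, 69.5 and 74.7 in dbR libraries. All dbdb libraries exceeded all control libraries, with a log2 fold change of 0.86 (SE 0.11, limma adjusted p = 0.000498). Stk39, which codes for SPAK, had 7.37, 6.97 and 6.38 FPKM in control, 10.1, 7.98 and 10.2 in dbdb and 9.06, 9.63 and 9.43 in dbR libraries. The lowest dbdb library was close to the highest control library, and the log2 fold change was 0.44 (SE 0.10, limma adjusted p = 0.0111).

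In dbR vs. dbdb, none of the 10 genes was called by limma, and Sgk1 alone had an unadjusted p under 0.05. Over all genes tested, 0.743% were called, and the unadjusted p was under 0.05 in 17.5%. The 0.743% are 108 genes, a number that ran from 2 to 234 over the 21 alternatives. It was 36 and 31 without dbdb replicates 1 and 2, and 70, 2 and 10 without dbR replicates 1, 2 and 3, while 0 of the 10 genes were called in each of these. The median log2 fold change of the 10 genes was -0.04, beside -0.0022 over all genes. The 95% intervals of the log2 fold change ran from -0.06 to 0.27 for Slc12a3, from -0.34 to 0.20 for Scnn1a, from -0.16 to 0.18 for Scnn1b and from -0.29 to 0.06 for Scnn1g. For these 4 genes the interval did not reach a fall as large as their rise in dbdb vs. control. The intervals ran from -0.12 to 0.49 for Slc12a1, from -0.12 to 0.23 for Wnk1, from -0.35 to 0.14 for Wnk4 and from -0.23 to 0.22 for Stk39.

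**Figure D2:**
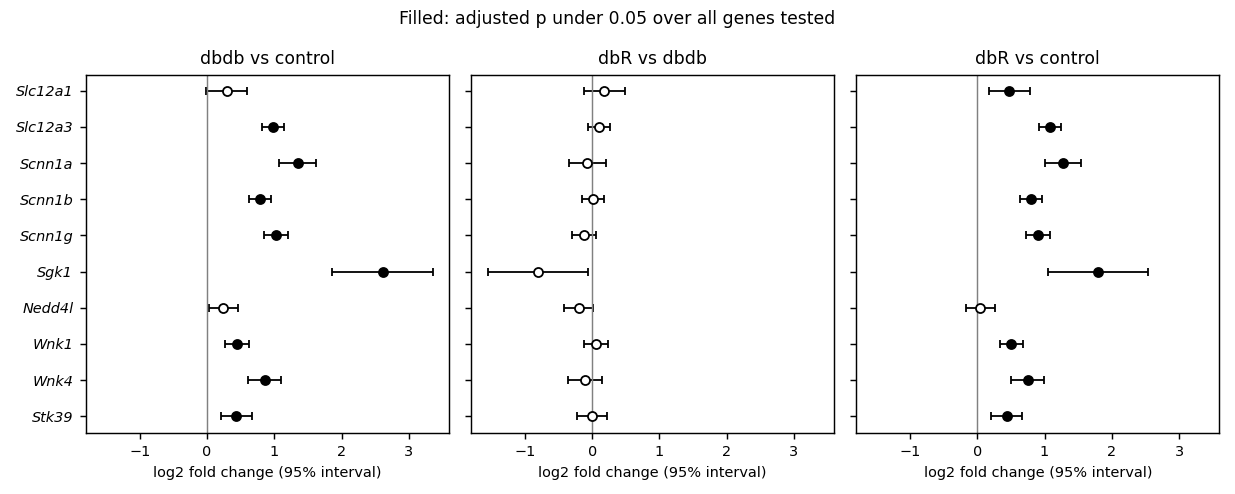
Log2 fold change with its 95% interval (x axis) of the 10 genes (y axis) in dbdb vs. control, dbR vs. dbdb and dbR vs. control, with filled points for an adjusted p under 0.05 over all genes tested. Filled points number 8 in the left panel, 0 in the middle panel and 9 in the right panel.

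Sgk1 had the widest interval in dbR vs. dbdb, from -1.55 to -0.07 around a log2 fold change of -0.81 (unadjusted p = 0.0357, limma adjusted p = 0.248). The values overlapped, because dbR replicate 3 at 213 FPKM lay above dbdb replicates 1 and 2. Without dbR replicate 3 the log2 fold change was -1.24 (limma adjusted p = 0.0706), and without dbR replicate 1 it was -0.52 (adjusted p = 0.437). In Nedd4l the 3 dbR libraries lay below the 3 dbdb libraries, although dbR replicate 1 was within 0.1 FPKM of dbdb replicate 1. Its log2 fold change of -0.20 did not pass the test (limma adjusted p = 0.319), and 11.9% of all genes tested had dbR libraries that lay below the dbdb libraries without overlap.

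In dbR vs. control, 9 of the 10 genes rose, against 12.3% of all genes tested that were called higher and 24.1% called in either direction. This comparison shares its libraries with the other 2 comparisons. Slc12a3 was higher in dbR by 2.12-fold, Scnn1a by 2.42-fold, Scnn1b by 1.74-fold and Scnn1g by 1.88-fold, and Sgk1 was higher by 3.48-fold (limma adjusted p = 0.00401). Wnk1 was higher by 1.42-fold, Wnk4 by 1.68-fold and Stk39 by 1.35-fold. Nedd4l did not pass the test, with a log2 fold change of 0.05 (SE 0.096, limma adjusted p = 0.774). Slc12a1 rose by 1.39-fold with a limma adjusted p of 0.0315, and each dbR library exceeded each control library. This call was lost without control replicate 2, control replicate 3, dbR replicate 1 or dbR replicate 2, with adjusted p between 0.0700 and 0.105.

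The order of the levels differed between groups. In control libraries Slc12a3 was the highest of the 10 genes at 106 ± 6.15 FPKM (SD, n = 3), followed by Wnk1 at 90.6 ± 3.94 and Slc12a1 at 89.0 ± 8.08, which overlapped. Wnk4 at 44.6 ± 6.83, Sgk1 at 33.6 ± 2.93 and Scnn1a at 13.9 ± 2.58 came next, without overlap between neighbours. The places of Wnk1 and Wnk4 rest in part on incomplete transcript models. Over complete models alone Wnk1 was at 58.4 ± 2.59 FPKM in control, 64.5% of its summed level, and lay below Slc12a1 without overlap in all 3 groups, while Wnk4 was at 19.2 ± 2.05, 43.0% of its summed level, and lay below Sgk1 in control. Nedd4l at 10.8 ± 1.12 overlapped Scnn1b at 9.45 ± 0.255, and Scnn1g at 7.53 ± 0.395 overlapped Stk39 at 6.91 ± 0.4997. In dbdb libraries Sgk1 at 213 ± 73.3 FPKM overlapped Slc12a3 at 209 ± 11.9 at the top. In dbR libraries Slc12a3 at 225 ± 15.3, Sgk1 at 129 ± 73.5, Wnk1 at 129 ± 9.71 and Slc12a1 at 124 ± 20.5 each overlapped the next. Nedd4l ranked 7 of the 10 genes in control and 9 in both dbdb and dbR, where it lay below all 3 ENaC subunits without overlap.

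Ratios within a library do not depend on the scaling of the library. The ratios were not tested, and how often ratios of other gene pairs do not overlap between groups was not counted. Of single genes tested, 21.2% lay higher in dbdb than in control without overlap. Slc12a3 over Slc12a1 was 1.15, 1.32 and 1.12 in control, 1.92, 2.28 and 1.64 in dbdb and 1.56, 1.98 and 1.97 in dbR libraries. The ratio of NCC to NKCC2 transcript was thus higher in every diabetic library, treated or not, than in any control library. Sgk1 over Nedd4l was 2.56, 3.17 and 3.68 in control, 14.1, 12.3 and 23.7 in dbdb and 6.31, 9.37 and 19.5 in dbR libraries. The control ratios lay below all others, and the dbR ratios overlapped those of dbdb. Scnn1b over Scnn1g was 1.25 ± 0.035 (SD, n = 3) in control, 1.06 ± 0.024 in dbdb and 1.16 ± 0.12 in dbR libraries, so that the β subunit gave a lower ratio to γ in dbdb than in control without overlap. Scnn1a over Scnn1g, at 1.83 ± 0.24 in control and 2.29 ± 0.29 in dbdb, overlapped, while the dbR libraries at 2.35 ± 0.11 lay above all control libraries. Wnk1 over Wnk4, each with its incomplete models, was 2.06 ± 0.33 in control and 1.54 ± 0.13 in dbdb, without overlap, and 1.73 ± 0.25 in dbR libraries, which overlapped both.

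At the level of transcripts, 19 that held at least 10% of their gene's FPKM in a group were described, and 13 of them were called in dbdb vs. control, 0 in dbR vs. dbdb and 13 in dbR vs. control. The first of these counts fell to 9 without dbdb replicate 3, and the last to 7 without control replicate 3 and to 8 without control replicate 1 or dbR replicate 3. Of all 29362 mRNA transcripts tested, 9.57%, 0.017% and 8.5% were called in these comparisons. How much of a gene goes to each transcript rests on the division of shared reads by Cufflinks. Of the 19, 14 had another described transcript of the same gene, and in dbdb vs. control the share of the gene's FPKM did not overlap between groups in 8 of these 14, in dbR vs. dbdb in 1 and in dbR vs. control in 4. Of 15545 transcripts chosen by the same rule over all genes tested, 16.1%, 11.5% and 15.1% had shares without overlap in these comparisons. Shares within a gene are not separate outcomes, since a rise in 1 lowers the rest. The 8 in dbdb vs. control, 4 higher and 4 lower, lie in Slc12a1, Sgk1, Nedd4l and Wnk1.

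In Slc12a1 the transcript with the first alternative exon (ENSMUST00000110494) held 23.5%, 29.7% and 32.8% of the gene's FPKM in control, 43.7%, 51.7% and 51.4% in dbdb and 39.1%, 44.2% and 45.4% in dbR libraries. Each dbdb and dbR library had a higher share than each control library, and the exact permutation p of 0.10 in either comparison is the smallest that 3 against 3 libraries can give. Over all genes, 8.24% of transcripts had a higher share in dbdb than in control without overlap and 7.62% in dbR than in control. The FPKM of this transcript rose in dbdb vs. control with a log2 fold change of 1.07 (limma adjusted p = 0.00413) and in dbR vs. control with 1.06 (adjusted p = 0.00466). The transcript with the second exon (ENSMUST00000028630) held 54.1%, 52.5% and 44.5% in control, 38.1%, 38.0% and 43.5% in dbdb and 42.3%, 47.9% and 43.4% in dbR libraries. Its share in dbdb was below that in control without overlap (exact permutation p = 0.10), while its own log2 fold change was -0.04 (limma adjusted p = 0.924). The transcript with the third exon (ENSMUST00000110495) held between 5.1% and 22.8%, and its shares overlapped between all groups. The transcript with the first exon also starts 95 bases upstream of the other 2 transcripts, so the division does not rest on the exon alone.

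**Figure D3:**
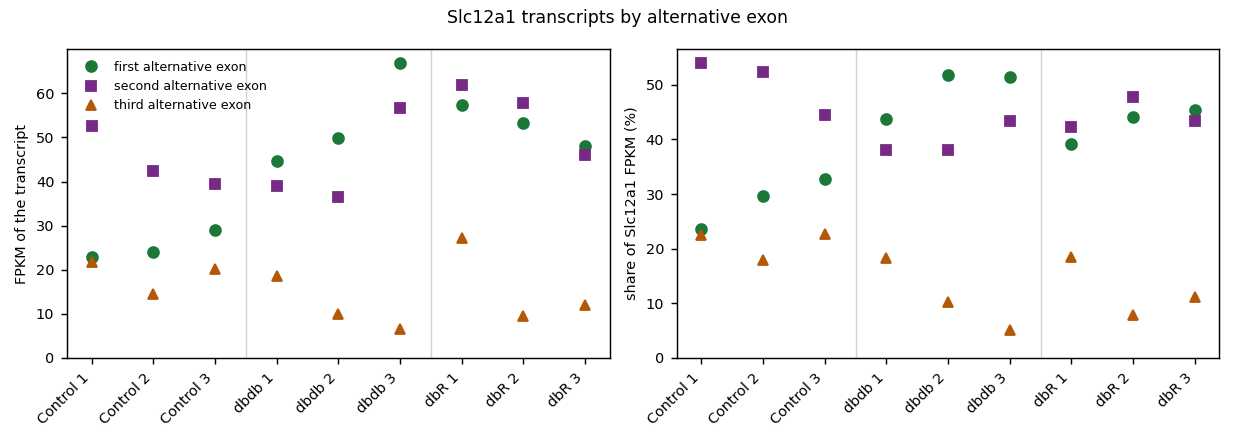
FPKM (left) and share of the gene's FPKM in percent (right) of the 3 Slc12a1 transcripts, named by their alternative exon, in each library (x axis). The share of the first exon lies between 23.5% and 32.8% in the control libraries and between 39.1% and 51.7% in the other 6 libraries.

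Of the 9 listed transcripts of Sgk1, the one that starts at base 21994666 of chromosome 10 (ENSMUST00000020145) is the one whose promoter holds TATAAA in the sequences above. It held between 87.1% and 88.4% of the gene's FPKM in control, 94.1% to 96.0% in dbdb and 92.4% to 94.8% in dbR libraries. It rose by 2.72 on the log2 scale in dbdb vs. control (limma adjusted p = 0.00311). A transcript that starts further upstream, at base 21993890 (ENSMUST00000092673), at the window with the corticosteroid receptor element, rose with a log2 fold change of 1.28 (limma adjusted p = 0.0147), and its share went from between 9.5% and 11.5% in control to at most 5.0% in dbdb. Of the 2 Nedd4l transcripts, the shorter (ENSMUST00000080418) held 34.3% to 38.5% in control and 40.4% to 48.8% in dbdb libraries, with a log2 fold change of 0.55 that did not pass the test (limma adjusted p = 0.062).

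Wnk1 had 15 listed transcripts, of which 5 are described. The 3 with a complete model were called in both comparisons with control. Among them the largest change in dbdb vs. control was a log2 fold change of 0.60 for ENSMUST00000203030 (limma adjusted p = 0.00359). Of the 2 incomplete models, ENSMUST00000161048 held 20.7% to 25.7% of the gene's FPKM, with a log2 fold change of 0.36 in dbdb vs. control that did not pass the test (limma adjusted p = 0.0958) and a call in dbR vs. control (0.59, limma adjusted p = 0.0183). Its share was higher in every dbR than in every dbdb library (exact permutation p = 0.10), at 24.3% to 25.7% against 20.7% to 23.4%, an order that 5.87% of transcripts over all genes had. The other, ENSMUST00000162541, had a log2 fold change of -0.12 in dbdb vs. control (limma adjusted p = 0.845). The short kidney-specific form of Wnk1 was not analysed here. In Wnk4 the full-length transcript (ENSMUST00000103108) rose with a log2 fold change of 0.87 (limma adjusted p = 0.000595). The other Wnk4 transcript (ENSMUST00000170372) is an incomplete model of 462 bases at the end of the gene that held 53.1% to 58.5% of the FPKM, so the summed level of Wnk4 is set in large part by this short model. The log2 fold change of this model, 0.85 (limma adjusted p = 0.011), was close to that of the full transcript.

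Other genes of the pathway were taken from 5 lists with 48 genes in all. In dbdb vs. control 22 of them rose and 5 fell, in dbR vs. dbdb 1 rose and 1 fell, and in dbR vs. control 20 rose and 5 fell. Of all genes tested, 26.4%, 0.743% and 24.1% were called in either direction in these comparisons. Among 13 further kinase and ubiquitin regulators, Klhl3, which codes for the adaptor through which the CUL3 ligase marks WNK kinases for degradation, rose in dbdb vs. control with a log2 fold change of 0.79 (limma adjusted p = 0.00013). Sort1, coding for sortilin, rose by 0.67 on the log2 scale, and the second adaptor gene, Klhl2, fell by 0.30. Cul3 fell by 0.19 in dbR vs. control (limma adjusted p = 0.0275), a comparison in which Klhl3 and Sort1 were also called higher and Klhl2 lower. Among 8 genes for proteases and partners of ENaC, St14 (matriptase) rose by 0.96 on the log2 scale in dbdb vs. control, Usp2, a deubiquitinase that acts on ENaC, by 0.69 and the protease inhibitor Spint2 by 0.20. Prss8, which codes for the channel-activating protease prostasin, fell by 0.35 (limma adjusted p = 0.0191).

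The list of corticosteroid receptors, their gatekeeper enzyme and their common target genes holds 8 genes, of which 7 rose and 1 fell in dbdb vs. control. Hsd11b2, which inactivates glucocorticoids and so keeps them from the mineralocorticoid receptor, rose with a log2 fold change of 1.02 (limma adjusted p = 0.000193), and the receptor gene Nr3c2 by 0.40. The glucocorticoid receptor gene Nr3c1 fell by 0.39. The target genes Zbtb16, Fkbp5, Per1 and Tsc22d3 rose with log2 fold changes of 2.78, 1.85, 1.48 and 0.96, and Klf9 with 0.32. In dbR vs. dbdb, Klf9, at 73.8, 72.4 and 77.7 FPKM in dbdb and 60.0, 53.3 and 58.3 in dbR libraries, fell by 0.38 on the log2 scale (limma adjusted p = 0.0389), a call that was lost in 12 of 21 alternatives, among them those without any 1 of the 6 dbdb and dbR libraries. The other 4 targets had log2 fold changes between -0.66 and -0.42 with limma adjusted p of at least 0.0873. These did not pass the test, although in 5 of the 8 genes of the list each dbR library lay below each dbdb library, an order found in 11.9% of all genes tested.

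A list of 12 genes covered basolateral exit and potassium channels. In dbdb vs. control Kcnj10, the basolateral potassium channel of the distal convoluted tubule, rose with a log2 fold change of 0.96, Bsnd, which codes for barttin, by 0.39 and the secretory potassium channel Kcnj1 by 0.32. Atp1b1, coding for the β subunit of the sodium pump, rose by 0.35, and Kcnma1, a calcium-activated potassium channel, fell by 0.71. Fxyd4, a regulator of the sodium pump in the collecting duct, is named after its values were seen. It had 16.3, 14.3 and 15.1 FPKM in dbdb and 22.1, 23.2 and 26.0 in dbR libraries, and rose in dbR vs. dbdb with a log2 fold change of 0.64 (limma adjusted p = 0.0433). This call too was lost in 12 of 21 alternatives, including those without any 1 of these 6 libraries. Among 7 genes of other sodium entry routes, Slc26a4 (pendrin) rose in dbdb vs. control by 0.72 on the log2 scale and Slc4a8 by 0.50, while Slc12a2 (NKCC1) fell by 0.53. Slc9a3, the proximal sodium-proton exchanger, fell by 0.23 in dbR vs. control (limma adjusted p = 0.0312). It had 36.7, 40.6 and 38.4 FPKM in dbdb and 32.8, 30.6 and 30.1 in dbR libraries, a log2 fold change of -0.31. No gene of this list was called in dbR vs. dbdb (limma adjusted p of at least 0.0632), and 11.9% of all genes tested had this order without overlap.

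Markers of the distal segments moved in the same comparisons as the 10 genes. In bulk cortex, a change in the number of cells of a type and a change in RNA per cell cannot be told apart. Between dbdb and control, 7 of 8 distal convoluted tubule markers were called higher, 8 of 11 markers of connecting tubule and principal cells and 9 of 9 markers of intercalated cells, which do not express NCC, against 13.1% of all genes tested. Their summed FPKM went from between 258 and 281 in control to between 459 and 561 in dbdb for the distal convoluted tubule, from between 262 and 288 to between 572 and 694 for connecting tubule and principal cells, and from between 91.3 and 103 to between 160.1 and 195 for intercalated cells. The median log2 fold changes of these lists were 0.49, 0.82 and 0.78, beside 0.98 for Slc12a3 and 0.79 to 1.35 for the ENaC subunits. A large part of the rise in the first 2 sums lay in Calb1, with a mean of 42.7 FPKM in control and 189 in dbdb. Calb1, which belongs to the first 2 of these lists, had the largest change among their genes, 2.12 on the log2 scale, followed by Aqp6 with 1.52, Trpv5 with 1.51, Slc8a1 with 1.36, Aqp2 with 1.34, and Trpm6 and Slc4a1 with 1.22 each. The other distal convoluted tubule markers called were Pvalb, Slc16a7, Cnnm2, Tmem52b and Emx1, with log2 fold changes between 0.44 and 0.54. Avpr2, Gata3 and Tfcp2l1 of the principal cell list and Atp6v1g3, Atp6v0d2, Atp6v1b1, Slc4a9, Foxi1 and Rhcg of the intercalated list were called with log2 fold changes between 0.47 and 0.96. In dbR vs. control, 6 of 8 distal convoluted tubule markers, 10 of 11 markers of connecting tubule and principal cells and 9 of 9 of intercalated cells were called higher, against 12.3% of all genes tested, with median log2 fold changes of 0.57, 0.93 and 0.93.

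Of 8 thick ascending limb markers tested, Ptger3 and Enox1 were called higher and Cldn10 lower in dbdb vs. control, where 13.1% of all genes tested were called higher and 13.4% lower. The summed FPKM of the list, between 611 and 720 in control and between 525 and 778 in dbdb, overlapped as Slc12a1 did. Cldn10, with a mean of 138 FPKM in control and 74.8 in dbdb, lowered the sum. The median log2 fold change of the list was 0.27, with 6 of 8 positive, beside 0.29 for Slc12a1. In dbR vs. control Cldn16 and Egf were called as well, with log2 fold changes of 0.57 and 0.43. The median of the list in that comparison was 0.45, with 7 of 8 positive, beside 0.47 for Slc12a1. Of all genes tested, 12.3% were called higher there. The part of the number of cells in the results on the 10 genes was not tested. In dbR vs. dbdb none of the markers of the thick ascending limb and distal convoluted tubule was called, 1 of 11 of the connecting tubule and principal cell list (Fxyd4) and 1 of 9 of the intercalated list (Atp6v1g3, log2 fold change 0.52), against 0.743% of all genes tested.

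**Figure D4:**
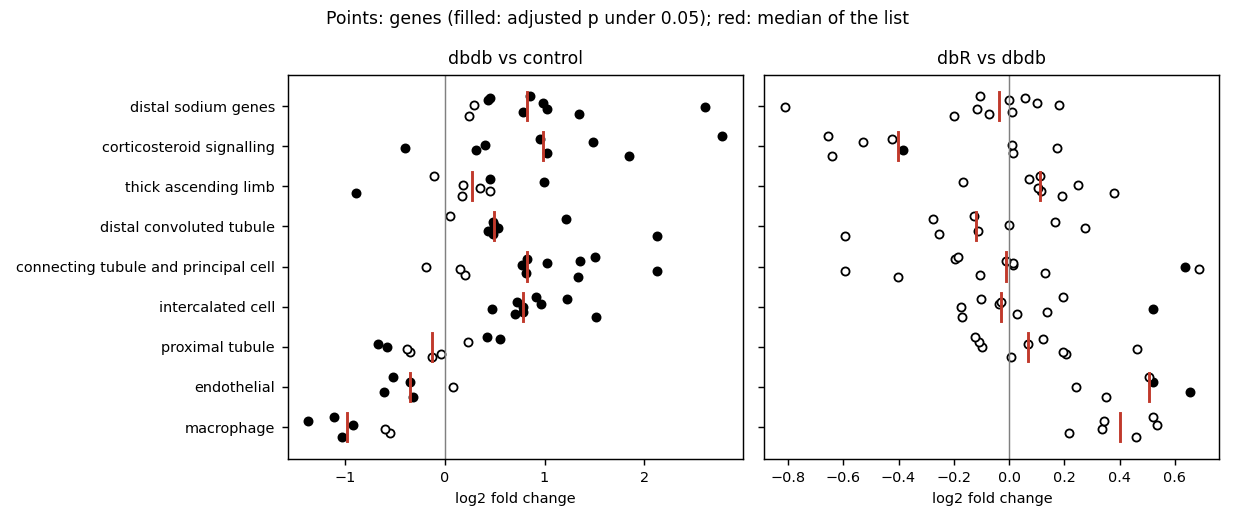
Log2 fold change (x axis) of each gene of 9 lists (y axis) in dbdb vs. control (left) and dbR vs. dbdb (right, on a narrower scale), with filled points for an adjusted p under 0.05 over all genes tested and a red line at the median of each list. The medians of the distal sodium genes, the distal convoluted tubule, the connecting tubule and the intercalated cells lie between 0.49 and 0.82 on the left and between -0.12 and -0.01 on the right.

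Markers of other cells moved in both directions. In dbdb vs. control 2 of 9 proximal tubule markers were called higher (Slc5a12 and Slc5a2) and 2 lower (Slc27a2 and Slc22a6). The summed FPKM of the 9 went from between 6091 and 6533 to between 4866 and 5794, with the lowest value in dbdb replicate 3, which had the highest Sgk1. Much of the fall in the sum lay in Slc27a2 and Miox, with means of 1749 and 1639 FPKM in control and 1100 and 1259 in dbdb. The median log2 fold change of the list was -0.13, with 3 of 9 positive. Endothelial markers were called lower in 4 of 5 genes (Pecam1, Kdr, Cdh5 and Emcn) and macrophage markers in 4 of 6 (Adgre1, Cd68, Csf1r and Lyz2), against 13.4% of all genes tested. Fabp4 of the adipocyte list was lower, Akr1b3 of the medullary osmolyte list was lower, and Nphs1 and Podxl of the podocyte list were higher. The adipocyte-defining Adipoq and Plin1 were near the floor, at most 0.265 and 0.105 FPKM in control, and were listed at 0 in all 3 dbdb libraries. Adipoq was also at 0 in dbR replicate 2, and Plin1 in control replicate 2 and dbR replicate 3. In dbR vs. dbdb Kdr and Emcn, Fabp4 and the pericyte gene Pdgfrb were called higher, where 0.743% of all genes tested were called. In dbR vs. control Flt1 was called higher. Of the proximal tubule markers 1 of 9 was called higher there and 2 lower, 2 of 6 macrophage markers lower and 2 of 5 podocyte markers higher. In the fibroblast list 1 of 5 was higher, and 1 of 3 medullary osmolyte genes tested was lower. Of all genes tested, 24.1% were called in either direction there. Of 7 immediate-early genes tested, which respond to handling and stress within minutes, Dusp1 rose with a log2 fold change of 1.53 and Jun with 0.91 in dbdb vs. control. The other 5 were not called, the median of the 7 was 0.21, and 13.1% of all genes tested were called higher. Dusp1 was at 15.9, 17.3 and 19.8 FPKM in control, 51.0, 42.3 and 61.4 in dbdb and 31.0, 39.8 and 56.6 in dbR libraries, with replicate 3 the highest of each group, and the part of such a response in the Sgk1 result was not tested.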

How the data were processed

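RNA-seq libraries from kidney cortex were used, 3 each of control, dbdb and dbR mice. Ribosomal RNA was removed and strand-specific libraries were read as pairs. Per the submitters' processing notes the authors used TopHat2 2.0.9, Cufflinks 2.1.1 and GRCm38.p2, and the study's methods add assembly with Scripture. The authors deposited the FPKM of each transcript, which Cufflinks had divided by transcript length and mapped fragments. Read counts are not part of these values, so no count test was used, and depth was estimated from the steps between low FPKM values.

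Transcript FPKM was added up per gene. log2(FPKM + 0.1) of the 14537 genes that averaged 0.1 FPKM or more was fitted with limma 3.58.1 (R 4.3.3, variance trend on) in 1 model for the 3 groups taken from the labels. Fold changes are on this scale and understate the change of low genes. The same fit was made for 29362 transcripts. Simulated data with known changes were used to check it. Transcript shares and the lncRNAs were compared with the exact two-sided permutation test, whose smallest p is 0.10. The alternatives covered the pseudocount, filter, scaling, variance trend, libraries in the fit, replicate block, top transcript and leaving out each library. Tables and figures were made in python 3.11.15 (pandas 2.3.3, numpy 2.4.6, scipy 1.17.1, matplotlib 3.10.9).

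The 10 genes, the other lists and the tests were chosen with earlier results of these data known. All 10 genes are named, and of each other list the genes called in any comparison, at most the 8 with the smallest adjusted p. Results of some genes under this rule are left out here. Protein sequences were not used here.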

Additional observations from a re-analysis of the deposited data

Results flagged for a closer look

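Of the lncRNAs in the deposited tables, which no comparison above used, 4 lie within 100 kb of the 10 genes, and in 2 of them every dbdb library was above every control library. Of all 2496 lncRNA transcripts that averaged 0.1 FPKM or more, 17.2% had this order. Both lie downstream of Slc12a3 on chromosome 8. Gm15889 (chr8:94377921-94380317, plus strand), 11707 bases from the end of Slc12a3, had 7.11, 6.32 and 5.52 FPKM in control, 25.4, 25.6 and 27.2 in dbdb and 16.3, 14.7 and 22.0 in dbR libraries. The mean was 4.12 times as high in dbdb as in control (exact permutation p = 0.10, the smallest possible), and the dbR libraries lay below the dbdb libraries without overlap (exact permutation p = 0.10), as in 5.41% of all these lncRNA transcripts. Gm15890 (chr8:94379184-94386972, minus strand), which overlaps Gm15889 on the other strand, had 1.04, 0.761 and 0.639 FPKM in control, 5.97, 5.96 and 9.23 in dbdb and 6.03, 4.83 and 6.94 in dbR libraries. Its mean was 8.68 times as high in dbdb as in control (exact permutation p = 0.10), and the dbR and dbdb values overlapped. Gm14002 within Slc12a1 and Gm11615 within Wnk4 overlapped between the groups. Whether these lncRNAs and Slc12a3 are connected was not tested.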

How the results depend on the processing

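Across 21 alternatives, the number of the 10 genes called was 8 to 9 in dbdb vs. control, 0 in dbR vs. dbdb and 8 to 9 in dbR vs. control. The ninth gene in dbdb vs. control was Nedd4l (log2 fold change 0.40, limma adjusted p = 0.0322) with mitochondrial transcripts left out and libraries scaled to the same sum. That scaling moved the median log2 fold change of all genes in dbdb vs. control by 0.15 and the share of higher calls from 49.5% to 78.3%, and in dbR vs. dbdb from 75.9% to 48.6%. In dbR vs. control this share went from 51.1% to 70.5% there and to 62.3% with scaling to the 75th percentile. Slc12a1 in dbR vs. control did not pass with no filter (limma adjusted p = 0.0508), without the variance trend (0.0605) and with the top transcript (0.270).

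Other pathway genes called in dbR vs. dbdb, 2 as reported, numbered 0 with no filter, without the variance trend and with the top transcript, 1 in a fit of 6 libraries, 4 after quantile normalization and between 0 and 2 without any 1 library. They numbered 21 to 30 in dbdb vs. control and 18 to 25 in dbR vs. control. Member transcripts called in dbdb vs. control, 13 as reported, numbered 9 to 15, with 10 under no filter, in a fit of 6 libraries, without the variance trend and with the replicate block. Those called in dbR vs. control, 13 as reported, numbered 8 with no filter and without the variance trend, and 7 to 13 without any 1 library (7 without control replicate 3, 8 without control replicate 1 or dbR replicate 3). The cause was not tested.

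The replicate numbers did not pair the libraries. Correlations of same-numbered libraries over genes lay between -0.175 and 0.0615, and 1, 2 and 0 of 6 libraries in the 3 comparisons correlated best with their own number. With the replicate block, 0 other pathway genes were called in dbR vs. dbdb.

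The signs that changed belonged to differences that passed no test. With the top transcript Slc12a1 in dbdb vs. control went from 0.29 to -0.043, while Nedd4l in dbR vs. control was -0.027 and Wnk1 in dbR vs. dbdb -0.020. In dbR vs. dbdb, Wnk1 was -0.00094 after quantile normalization and -0.0075 with mitochondrial transcripts left out, Scnn1b was -0.051 in the latter, and Stk39 was 0.022 with the 75th percentile and 0.026 with quantile normalization. Without 1 library, dbR vs. dbdb lay between -0.16 and 0.0084 for Scnn1a, -0.060 and 0.054 for Scnn1b, -0.0054 and 0.13 for Wnk1 and -0.12 and 0.057 for Stk39, and dbR vs. control between -0.039 and 0.11 for Nedd4l.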
